A study of Mus musculus with 8 samples.

Results

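The genes described here encode the proteins of the cytoplasmic ribosome. They were taken by symbol: protein-coding genes named Rpl or Rps plus a number, together with Rplp0, Rplp1, Rplp2 and Rpsa. Of 102 protein-coding genes with such a symbol, 10 Rps6k kinase genes, 6 genes named as pseudogenes by a -ps ending, and Rps19bp1 were left out. This gave 85 genes among the 48440 in the table, 52 of the large and 33 of the small subunit. Of these, 77 were core genes and 8 were paralogs, that is, second copies whose symbol carries an added l or rt (Rpl3l, Rpl7l1, Rpl10l, Rpl22l1, Rpl36al, Rpl39l, Rps27l and Rps27rt). The 85 genes lay on 19 chromosomes, with 14 on chromosome 7.

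RNA was sequenced from jejunal epithelial cells of 8 female mice on a C57BL/6J background, all carrying the Sox9-EGFP reporter, in which green fluorescence follows Sox9, a transcription factor of the crypt. The sort kept the EGFP-low fraction and discarded dying cells (Annexin-V or Sytox-blue), endothelial cells (CD31) and leukocytes (CD45). The animals formed 4 littermate pairs, A to D, born germ-free. In each pair 1 animal was kept germ-free. Its littermate was transferred, aged 8 to 10 weeks, to conventional housing and gavaged with fecal slurry, and tissue was taken 2 weeks afterwards, so housing and gavage cannot be told apart. Depth on an approximate read scale ran from 6209041 reads in germ-free C to 19139683 in the conventionalized library of pair D. Germ-free C, the library of the germ-free animal of pair C, also stood apart in overall expression: its median correlation with the other germ-free libraries was 0.792, against 0.871 to 0.943 for the other libraries within their groups. The share of the family, its range of fold changes and the fold changes of the genes named for a low p are therefore also given without it. Values are deposited signal scaled to CPM (a gene's part of its library's total, TMM-scaled between libraries), fold changes are given on the log2 scale (conventionalized over germ-free, SE for standard error), and n = 4 animals per group unless stated.

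The ribosome is built from a small subunit, which reads the messenger RNA, and a large subunit, which joins amino acids. Each holds ribosomal RNA and a fixed set of proteins, most of them present once per ribosome, so their genes are expressed together. Their messenger RNAs typically start with a C followed by a run of pyrimidines, the terminal oligopyrimidine tract, through which the growth-signalling kinase complex mTORC1 and the protein Larp1 govern their translation and stability. In the intestinal crypt, where stem cells and their daughters divide fast, ribosome content is high, and it declines as cells leave the cycle.

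The start-site sequences of some of these genes are shown because this tract is what the family is known for. RefSeq (GRCm38.p6) gave 77 promoters for 65 of the 85 genes. A C within 5 bases of the annotated start, followed by at least 5 pyrimidines (C or T) on the coding strand, was found in 36.4% of these promoters and in 10.2% of all 32851 promoters of the same length. The windows below hold 15 bases before the annotated start and 15 from it, 5′ to 3′, with the C and the pyrimidines after it in capitals. They are examples and not a sample of the family. The run is commoner among them than in the family, where 27 of the 65 genes (41.5%) had one at any annotated start.

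Rpl13a (large subunit, chr7:45128731-45128760, minus strand): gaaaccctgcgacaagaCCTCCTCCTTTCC
Rplp2 (stalk, chr7:141447636-141447665, plus strand): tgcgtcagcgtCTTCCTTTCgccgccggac
Rps18 (small subunit, chr17:33955651-33955680, minus strand): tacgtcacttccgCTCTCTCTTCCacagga
Rps24 (small subunit, chr14:24490663-24490692, plus strand): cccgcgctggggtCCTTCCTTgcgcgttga
Rps6 (small subunit, chr4:86857353-86857382, minus strand): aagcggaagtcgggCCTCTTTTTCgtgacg
Rpl22l1 (paralog, chr3:28805493-28805522, plus strand): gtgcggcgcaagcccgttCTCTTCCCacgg
Rpl7l1 (paralog, chr17:46782642-46782671, minus strand): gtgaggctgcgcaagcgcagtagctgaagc

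The run was 10 bases long in Rps6 and 8 in Rpl22l1. In Rpl13a it went on past the end of the window, to 14 bases, and no run met the rule in the window of Rpl7l1. Rps24 has another annotated start, not printed, whose window held no run. These matches are letters at annotated starts, and the starts used in these cells were not measured.

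Ribosomal protein genes made up a larger part of the conventionalized libraries. Their share of the library signal was 4.68% in conventionalized animal A, 4.68% in B, 5.50% in C and 6.61% in D, and 3.51%, 4.50%, 1.28% and 3.72% in the germ-free animals A to D. The groups did not overlap, although conventionalized B was only slightly above its germ-free littermate. This share is of each library's total, without TMM scaling. On the TMM-scaled values used for single genes, the median difference in pair B was -0.06, with conventionalized B the lower. The mean was 5.37 ± 0.912% (SD) in conventionalized and 3.25 ± 1.38% in germ-free libraries, or 3.91 ± 0.523% (n = 3) without germ-free C. With each gene's signal divided by its length, the share was 8.77 ± 1.36% against 5.41 ± 2.11%. These are bulk libraries, so fewer cells of a type and less RNA per cell cannot be told apart.

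**Figure D1:**
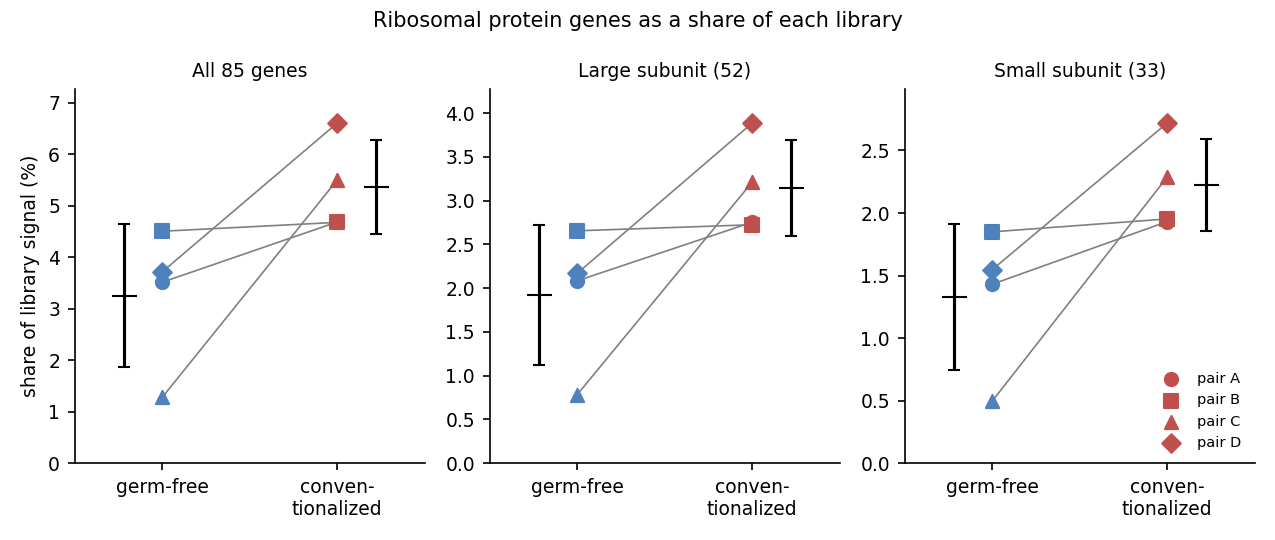
Share of library signal (%, y axis) from all 85 ribosomal protein genes and from each subunit, in germ-free (blue) and conventionalized (red) libraries; grey lines join littermates, and black bars give the mean ± SD of 4 animals. The 4 conventionalized libraries lie at 4.68% to 6.61% for all genes, above the germ-free libraries at 1.28% to 4.50%.

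Of the 85 genes, 82 passed the minimum of 10 CPM in at least 4 libraries, among 10053 genes tested in all. All 82 fold changes were positive, against 70.2% of all genes tested. Their median was 1.09 (2.13-fold), with quartiles of 1.003 and 1.17, while the median over all genes tested was 0.32. None was called by limma at an adjusted p under 0.05, where 1.16% of all genes were called higher and 3.76% lower. Their adjusted p ran from 0.0978 to 0.283. At an unadjusted p under 0.05, 57 of the 82 were higher and 0 lower, against 19.7% and 8.12% of all genes tested. With the littermate pair as a block, 3 were called higher (Rpl22, Rpl22l1 and Rpl7l1), where 8.08% of all genes were called higher and 5.02% lower. The conventionalized libraries were all above the germ-free ones for 22 of the 82, or 26.8%, against 9.03% of all genes tested. The genes share the libraries and varied together: the median correlation of the 77 core genes with their own median was 0.995. Counts over the family, here and below, are therefore not counts of independent observations.

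The 82 fold changes lay close to each other. Their SD was 0.144, against 0.737 over all genes tested, and they ran from 0.65 for Rpl10a to 1.42 for Rpl22. A doubling or more was estimated for 62 of them, or 75.6%, against 11.6% of all genes. The SE of a single gene, 0.38 to 0.53 for the genes named here, was larger than this spread. That SE includes variation between libraries that the genes share, so it does not measure the error of a difference between genes. The order of genes within the family was not tested. In an alternative added after the data were seen, each library was centred on the median of the core ribosomal protein genes. This sets the family near 0 by construction, so it cannot show whether the family differed between the groups. It asks only whether a gene departed from that median, which the core genes themselves set. A count of 0 in this fit therefore cannot show that no gene departed. Of the 82, 0 were called and 0 had an unadjusted p under 0.05 (lowest adjusted p = 0.321, limma, for Rpl10a). In that fit 2 of all genes tested (0.0199%) were called higher and 213 (2.12%) lower. At an unadjusted p under 0.05, 0.229% were higher and 22.6% lower, and the median of all genes was -0.75. These values are relative to the family, and the downward shift follows from the centring.

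**Figure D2:**
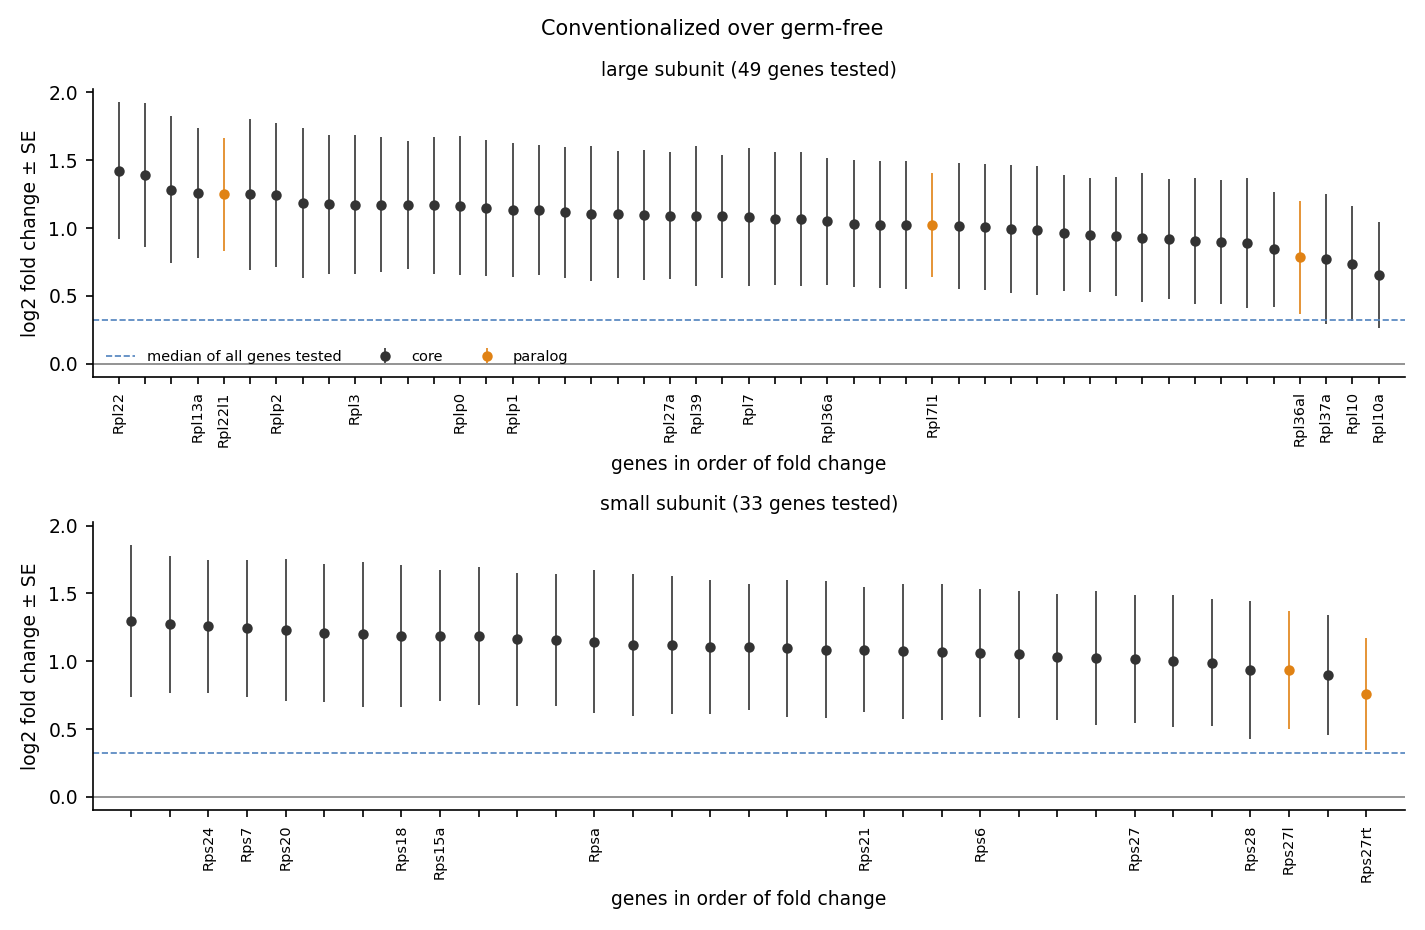
Log2 fold change ± SE (y axis) of the 49 large subunit and 33 small subunit genes tested, in order of size, with core genes in black and paralogs in orange; only genes described in the text are labelled. Every point is above 0 and above the dashed line, the median of all genes tested (0.32), and the SE bars of most genes overlap each other. The bars include variation between libraries that the genes share, so their overlap does not compare genes with each other.

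The libraries ranked almost the same way in every gene. All 82 were lowest in germ-free C and all 82 were highest in conventionalized D, where 49.4% and 30.1% of all genes tested had their lowest and highest value. These were also the libraries with the fewest and the most approximate reads (6209041 and 19139683). Mean depth was 1.36e+07 ± 4.76e+06 (SD) approximate reads in conventionalized and 9.09e+06 ± 2.26e+06 in germ-free libraries. The part of depth in the result was not tested. In germ-free C the level was 15.5% to 44.0% of the mean of the other 3 germ-free libraries (median 22.5%), against a median of 69.7% over all genes. Rpl39 was at the low end of that range and Rpl10a at the high end. In conventionalized D the level was 129% to 191% of the mean of the other conventionalized libraries (median 165%), against a median of 118% over all genes.

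The 4 pairs did not differ alike. The median difference of conventionalized from germ-free littermate was 0.60 in pair A, -0.06 in B, 2.42 in C and 1.38 in D, beside medians over all genes tested of 0.32, 0.06, 0.35 and 0.49. In pair A 81 of the 82 were higher in the conventionalized animal (68.3% of all genes were), in pairs C and D all 82 (63.1% and 70.4%), but in pair B only 29 (54.8%). The exception in pair A was Rpl37a. Across all 4 pairs 29 genes, or 35.4%, were higher each time, against 28.4% of all genes. Without germ-free C the 82 fold changes ran from 0.31 to 0.81, with a median of 0.55, beside 0.22 for all genes. Without both libraries of pair C it was 0.65, beside 0.34 for all genes. In these 2 fits limma called 0 members (2.42% and 0.573% of all genes were called higher). At an unadjusted p under 0.05, 11 and 12 of the 82 were higher (12.8% and 18.3% of all genes). The part of the family was close to that of all genes in the first fit and below it in the second. Leaving out conventionalized D took the count at an unadjusted p under 0.05 to 1 (7.56% of all genes), with a median of 0.88. Leaving out conventionalized A took it to 5 (9.31%), with a median of 1.03. Leaving out germ-free B raised it to 77 (23.1%), with a median of 1.31.

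**Figure D3:**
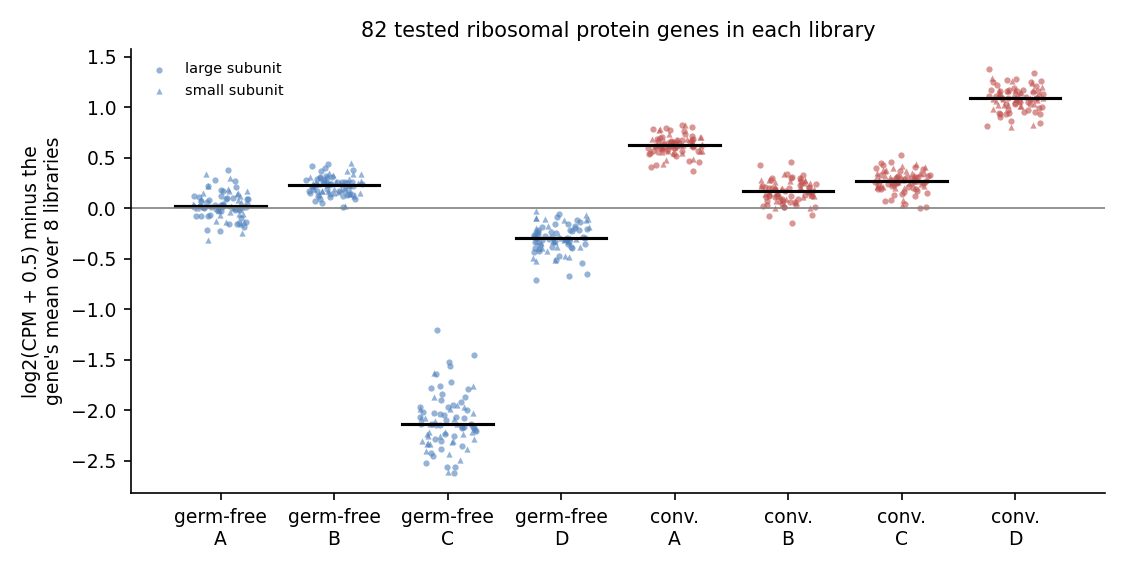
Level of each of the 82 tested genes in each library as log2(CPM + 0.5) minus the gene's mean over the 8 libraries (y axis), circles for large and triangles for small subunit genes, with the median as a black line. Germ-free C lies lowest in every gene and conventionalized D highest, and in pair B the median of the conventionalized library is below that of its germ-free littermate.

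The large subunit is described first. Rpl22, an RNA-binding protein on the ribosome's outer face, had the largest fold change (ENSMUSG00000028936.15, GRCm38 chr4:152325742-152334071). It was at 159.5, 105.6, 123.6 and 228.5 CPM in conventionalized animals A to D and at 80.7, 97.5, 14.8 and 75.9 CPM in the germ-free animals. The groups did not overlap, and germ-free C was the lowest by far. The means were 154 ± 54.3 and 67.2 ± 36.2 CPM, and the log2 fold change was 1.42 (SE 0.50, limma adjusted p = 0.114, 0.0379 with the block). Without germ-free C it was 0.81 (limma adjusted p = 0.102).

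Rpl13a, known also for repressing the translation of some inflammatory messenger RNAs once it is released from the ribosome, was at 595, 450, 532 and 943 CPM in conventionalized animals A to D. In the germ-free animals it was at 390, 410, 85.3 and 298 CPM. The groups were again apart, with a log2 fold change of 1.26 (SE 0.48, limma adjusted p = 0.131), and 0.74 (limma adjusted p = 0.178) without germ-free C. Rpl3, which shapes the catalytic centre, was at 1963 ± 565 against 1000 ± 522 CPM, and Rpl39, at the exit tunnel of the growing protein, at 144 ± 32.4 against 83.1 ± 45.8 CPM. Neither passed the test (limma adjusted p = 0.162 and 0.182).

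The smallest fold changes were those of Rpl10a and Rpl10. Rpl10a was at 633, 451, 489 and 913 CPM in conventionalized animals A to D and at 482, 517, 206 and 405 CPM in germ-free ones. The groups overlapped, since conventionalized B and C were below germ-free B. The log2 fold change was 0.65 (SE 0.39, limma adjusted p = 0.265). Rpl10, a late-joining protein near the catalytic centre, had one of 0.74 (SE 0.43, limma adjusted p = 0.253). Rpl37a had the highest adjusted p of the family (1035 ± 366 against 671 ± 351 CPM, limma adjusted p = 0.283). Its level in germ-free A, 988 CPM, was above those of conventionalized A, B and C.

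The stalk of the large subunit, made of Rplp0, Rplp1 and Rplp2, recruits the elongation factors. Rplp0 was at 2933, 2223, 1954 and 3810 CPM in conventionalized animals A to D and at 1524, 2098, 399 and 1506 CPM in germ-free ones. It was higher in the conventionalized littermate of each pair, though conventionalized C was below germ-free B. Its log2 fold change was 1.16 (SE 0.51, limma adjusted p = 0.165). Rplp1 (771 ± 285 against 395 ± 203 CPM, 1.13) and Rplp2 (557 ± 211 against 275 ± 153 CPM, 1.24) had limma adjusted p of 0.163 and 0.158. Both were lower in conventionalized B than in its littermate.

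In the small subunit, Rps24, Rps7 and Rps15a were among the genes with the lowest p-values. Rps24, which takes part in small subunit maturation and is mutated in some families with Diamond-Blackfan anemia, was at 309, 247, 275 and 508 CPM in conventionalized animals A to D. In germ-free animals it was at 226, 234, 41.6 and 146 CPM. The groups did not overlap, although conventionalized B was close to germ-free B. The log2 fold change was 1.26 (SE 0.49, limma adjusted p = 0.138), and 0.70 (limma adjusted p = 0.193) without germ-free C.

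Rps7 (454 ± 145 against 224 ± 117 CPM, log2 fold change 1.24) and Rps15a (313 ± 73.2 against 162 ± 87.4 CPM, 1.19) both had a limma adjusted p of 0.145. The groups were apart for both. Without germ-free C the log2 fold changes were 0.65 for Rps7 and 0.61 for Rps15a (limma adjusted p = 0.236 and 0.253). Rps20, on the head of the small subunit, was at 460 ± 140 against 234 ± 129 CPM (limma adjusted p = 0.156), with groups apart.

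Rps6, the substrate of the S6 kinases downstream of mTORC1, was at 1029, 809, 778 and 1429 CPM in conventionalized animals A to D and at 696, 766, 171 and 534 CPM in germ-free ones. The groups did not overlap, with 778 CPM in conventionalized C next to 766 CPM in germ-free B. The log2 fold change was 1.06 (SE 0.47, limma adjusted p = 0.168). Rpsa, also known as the laminin receptor, was at 1936 ± 555 against 1025 ± 546 CPM (log2 fold change 1.14, limma adjusted p = 0.177). Rps28 had the highest p among the core small subunit genes (356 ± 109 against 220 ± 118 CPM, log2 fold change 0.93, limma adjusted p = 0.231).

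The 2 subunits had fold changes of like size. The median log2 fold change was 1.081 over the 49 large subunit genes tested and 1.103 over the 33 of the small subunit, a difference of -0.02. Over the 4 pairs the large subunit medians were 0.59, -0.07, 2.36 and 1.40, and those of the small subunit 0.61, -0.05, 2.50 and 1.36. The summed signal of the large subunit was 1.40 to 1.43 times that of the small subunit in the conventionalized libraries. It was 1.46, 1.44, 1.58 and 1.40 times in germ-free animals A to D, so germ-free C, the library with the lowest ribosomal share, had the highest ratio. Conventionalized libraries all above the germ-free ones were found for 12 of the 49 large and 10 of the 33 small subunit genes (9.03% of all genes tested). At an unadjusted p under 0.05 by limma, 33 and 24 were higher (19.7% of all genes tested).

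The 8 paralogs differed first in whether they were expressed. Rpl3l, known from heart and skeletal muscle, and Rpl10l and Rpl39l, known from the male germ line, had mean levels of 0.168, 0.162 and 0.216 CPM and did not reach the minimum. Rpl10l was listed at 0 in 5 of the 8 libraries. The highest value of these 3 genes in any library was 1.08 CPM, that of Rpl10l in germ-free D. The other 5 paralogs were tested, and they had a median log2 fold change of 0.93, against 1.09 over the 77 core genes.

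Rpl22l1, which can take the place of Rpl22 in the ribosome, had the lowest p of the family (ENSMUSG00000039221.10, GRCm38 chr3:28805436-28807424). It was at 65.8, 56.4, 54.3 and 79.9 CPM in conventionalized animals A to D and at 46.3, 42.6, 9.72 and 24.8 CPM in germ-free ones. The groups were apart, and the conventionalized animal was the higher one in each pair. The log2 fold change was 1.25 (SE 0.42, limma adjusted p = 0.0978, 0.0388 with the block), and 0.78 (limma adjusted p = 0.109) without germ-free C.

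Rpl7l1, a relative of Rpl7 (ENSMUSG00000063888.6, GRCm38 chr17:46773907-46782672), was at 195.5, 153, 114 and 199.7 CPM in conventionalized animals A to D and at 108, 136, 38.0 and 71.1 CPM in germ-free ones. Conventionalized C was below germ-free B, but each conventionalized animal was above its littermate. The log2 fold change was 1.02 (SE 0.38, limma adjusted p = 0.126, 0.0417 with the block), and 0.67 (limma adjusted p = 0.197) without germ-free C. With the block and with centring on length and GC content together, none of Rpl22, Rpl22l1 and Rpl7l1 was called (limma adjusted p = 0.068, 0.0871 and 0.0584), where 4.06% of all genes were called higher.

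Rps27l, a target of p53, was at 248 ± 60.2 against 147 ± 77.1 CPM (log2 fold change 0.93, limma adjusted p = 0.180). Rpl36al, a copy of Rpl36a, was at 329 ± 110 against 205 ± 101 CPM (log2 fold change 0.78, limma adjusted p = 0.223). Its signal was above that of Rpl36a in all 8 libraries, at 136% to 282%. Per length it was at 86.8% to 180% of Rpl36a, above it in 5 of the 8 libraries. Rps27rt was at 19.9 ± 5.13 against 12.7 ± 6.11 CPM (log2 fold change 0.76, limma adjusted p = 0.230). Its coding sequence is 100% identical to that of Rps27, so how its reads were divided between the copies is uncertain. Identity was 87.7% for Rpl36al and its core gene, 77.2% for Rps27l, 69.3% for Rpl22l1 and 57.1% for Rpl7l1.

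No difference between the groups was detected in the balance of paralog and core gene. Rpl22l1 signal was 41.3%, 53.4%, 44.0% and 34.995% of that of Rpl22 in conventionalized animals A to D and 57.4%, 43.7%, 65.7% and 32.7% in germ-free ones. These ranges overlap, and 2 of the 4 pairs were lower in the conventionalized animal (exact two-sided permutation p = 0.543 over 70 assignments). The mean was 161 ± 31.1% against 198 ± 62.7% for Rpl36al over Rpl36a (exact permutation p = 0.343) and 19.7 ± 2.53% against 21.3 ± 7.53% for Rpl7l1 over Rpl7 (exact permutation p = 0.886). It was 41.1 ± 7.23% against 43.0 ± 2.73% for Rps27l over Rps27 (exact permutation p = 0.571) and 3.28 ± 0.426% against 3.83 ± 0.471% for Rps27rt over Rps27 (exact permutation p = 0.143). Over these 5 ratios the smallest adjusted p was 0.714, and the smallest p that these unpaired assignments allow is 0.0286. With signs exchanged only within littermate pairs (16 assignments, smallest possible p 0.125), the exact p of the 5 ratios ran from 0.375 to 1. The ratios of Rpl22l1, Rpl36al, Rpl7l1 and Rps27rt had their highest value in germ-free C.

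**Figure D4:**
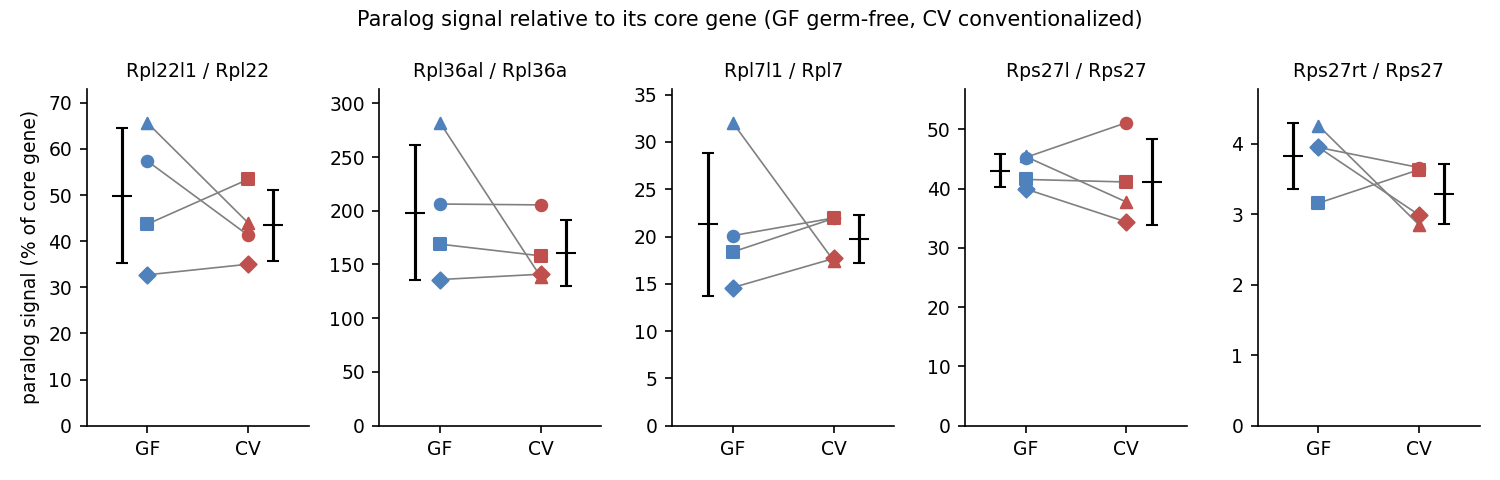
Signal of each tested paralog as a percentage of that of its core gene (y axis, from 0) in germ-free (GF, blue) and conventionalized (CV, red) libraries; grey lines join littermates, circles, squares, triangles and diamonds are pairs A to D, and black bars give the mean ± SD of 4 animals. The groups overlap in all 5 panels, and Rpl36al is above 100% in every library.

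Levels differed far more between genes than between groups. Per kb of transcript, Rplp0 (2407 CPM per kb) and, in the small subunit, Rps18 (1878 CPM per kb) were among the genes with the highest mean levels over the 8 libraries. The lowest core genes were Rpl22 (54.1) and Rpl27a (156) in the large subunit and Rps20 (93.7) and Rps21 (334) in the small subunit. The core median was 694 CPM per kb, above that of 98.1% of all genes tested. The value of Rps20 rests on coding transcript models with a median length of 3706 bases and would be higher with a shorter one. Lengths are medians over annotated transcripts, not those used in these cells.

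Rps18 was at 1332, 1004, 1146 and 1900 CPM in conventionalized animals A to D and at 871, 1076, 172 and 665 CPM in germ-free ones. Its groups overlapped, since conventionalized B was below germ-free B (log2 fold change 1.19, SE 0.52, limma adjusted p = 0.165). At the low end, Rpl27a (237 ± 88.0 against 124 ± 62.2 CPM) and Rps21 (172 ± 59.8 against 91.3 ± 47.4 CPM) had fold changes of 1.09 and 1.08. These abundant and rarer members differed little in fold change, next to 1.42 for Rpl22, the core gene lowest per kb.

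Over the whole table, shorter genes had higher fold changes (Spearman correlation with length -0.22 over 10047 genes, which share the libraries). Within the family the sign was the opposite (0.25 over the 82 genes). The members tested had a median length of 704 bases, against 2038 over all genes tested. The median log2 fold change was 0.47 over 2075 other genes under 1000 bases, 0.36 over 4952 of 1000 to 3000 bases and 0.14 over 2938 of 3000 bases or more. Over the 630 other genes under 1000 bases with at least 100 CPM it was 0.53, with pair medians of 0.43, -0.22, 1.004 and 0.94, in the same order as those of the ribosomal protein genes. Centring each library on length and GC content took the median of the 82 genes from 1.09 to 0.65 and that of all genes from 0.32 to 0.08. The part of transcript length in the result was not tested further.

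**Figure D5:**
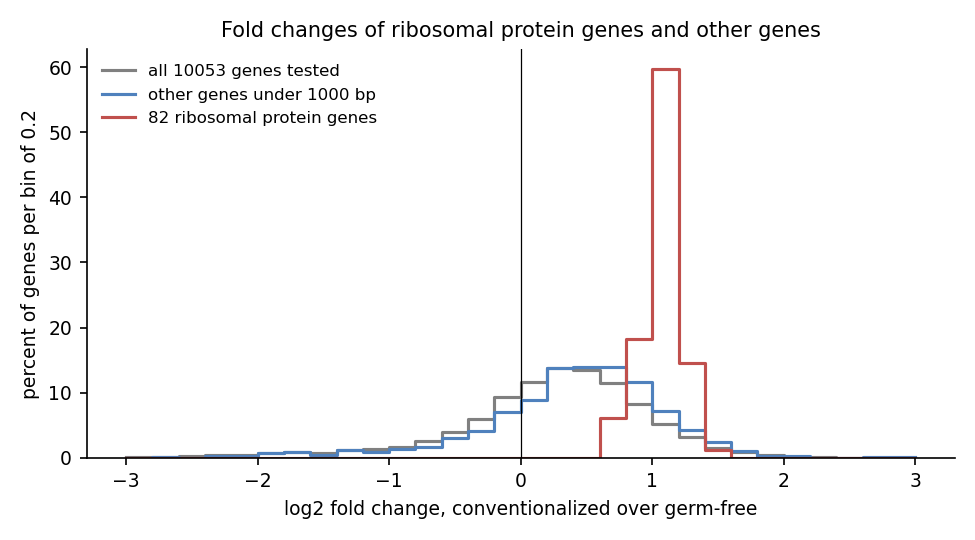
Percentage of genes (y axis) per bin of 0.2 in log2 fold change (x axis; values beyond the axis are in the end bins) for all 10053 genes tested, for other genes under 1000 bases and for the 82 ribosomal protein genes. The ribosomal protein genes fill bins between 0.6 and 1.6, inside the upper part of the other distributions.

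Annotated pseudogene copies were also in the table, in 263 rows. Their summed signal was 2.43% to 2.78% of that of the 85 genes in the conventionalized libraries and 2.50% to 4.12% in the germ-free ones, highest in germ-free C. Of the 26 copies that reached the minimum, limma called 0, with 20 higher and 0 lower at an unadjusted p under 0.05 (19.7% and 8.12% of all genes tested). With the block 3 were called higher, where 8.08% of all genes were (Rpl3-ps1, Rpl15-ps3 and Rps16-ps2, named after their values were seen). Rows were not all separate signals. Rpl35a-ps3 and Rpl35a-ps6, both among the 20, had identical values in every library, and Rpl35a-ps4 shared their germ-free values. Their median log2 fold change was 1.07, and reads shared between a gene and its copies cannot be assigned with certainty. For Rpl38 the copies amounted to 37.3% of the signal of the gene, the largest such share.

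Genes with a matching pyrimidine run at an annotated start had fold changes like those without. The median was 1.10 over the 27 tested genes with a run (range 0.76 to 1.39) and 1.05 over the 35 tested genes whose promoters held none (range 0.65 to 1.42). Of the genes printed above, Rpl13a with the longest run (1.26) and Rpl7l1 with none (1.02) were both within the range of either set.

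Other genes of the translation machinery were compared by lists. Beside the counts below, 1.16% of all genes tested were called higher and 3.76% lower, 19.7% and 8.12% were higher and lower at an unadjusted p under 0.05, and 8.08% and 5.02% were called higher and lower with the block. Some ribosomal proteins have symbols that do not follow the naming rule. Of these, Rack1, a scaffold on the small subunit, had a log2 fold change of 1.18 (limma adjusted p = 0.151), and Fau, which encodes a ribosomal protein fused to a ubiquitin-like protein, one of 0.88 (limma adjusted p = 0.201). A further list held 21 other transcripts known for a terminal oligopyrimidine start, such as those of elongation factors and the non-coding Gas5 and Snhg1. Of these, 0 were called by limma, 10 were higher at an unadjusted p under 0.05, and 4 were called higher with the block (Hnrnpa1, Nap1l1, Pabpc1 and Eif3e). The list median was 0.95. The median was 0.50 over 29 initiation factors (0 called, 6 higher at an unadjusted p under 0.05, 2 called higher with the block). It was 0.38 over 17 tested genes of mTORC1 and of regulators of messenger RNAs with such a start (0 called, 4 higher and 1 lower at an unadjusted p under 0.05). Among the 17, 1 was called higher with the block and 0 lower: Deptor, an mTORC1 inhibitor.

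Of 15 chaperones and importers of ribosomal proteins, 0 were called by limma, 8 were higher at an unadjusted p under 0.05 (19.7% of all genes were), and 4 were called higher with the block (8.08% of all genes were; Tsr2, Grwd1, Ltv1 and Ncl), with a median of 0.83. Tsr2, which escorts Rps26, had a log2 fold change of 1.08 (limma adjusted p = 0.0989, 0.045 with the block). Grwd1, which escorts Rpl3, had one of 1.31 (limma adjusted p = 0.0989, 0.0325 with the block). The 78 mitochondrial ribosomal protein genes, which serve the separate ribosome of the mitochondrion, had a median of 0.85 (0 called by limma, 46 higher at an unadjusted p under 0.05 beside 19.7% of all genes, 16 called higher with the block beside 8.08%). Their pair medians were 0.77, -0.11, 1.55 and 1.17. Their share of library signal was 0.788 ± 0.0666% against 0.531 ± 0.166%, and the groups did not overlap.

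Markers of several cell types differed between the groups too, where 1.16% of all genes tested were called higher and 3.76% lower. All 6 enteroendocrine markers were lower in conventionalized animals (limma, adjusted p under 0.05 for each), with summed levels of 2998 to 9572 CPM against 18128 to 40570 CPM. Of 5 proliferation markers 2 were called higher (Mki67 and Ccnb1), with sums of 755 to 1182 CPM against 138 to 570 CPM. Of 5 stem cell markers Lgr5 was called higher, with sums of 4115 to 8466 CPM against 605 to 4495 CPM. Of 6 enterocyte markers 2 were called lower (Krt20 and Sis), with sums of 468 to 2981 CPM against 1643 to 4634 CPM. The list was split: Fabp1, Fabp2 and Alpi had positive log2 fold changes (0.50, 0.75 and 0.69) and Apoa1 a negative one (-0.88). None of these was called (limma adjusted p from 0.381 to 0.686). Limma called 0 of 5 Paneth cell markers (adjusted p from 0.158 to 0.833; sums of 5575 to 8176 against 2300.5 to 13405 CPM) and 0 of 4 tuft cell markers (adjusted p from 0.219 to 0.590; sums of 59.9 to 538 against 256 to 542 CPM). Germ-free C had the lowest sum and conventionalized D the highest in both the proliferation and the stem cell list, as for the ribosomal protein genes.

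The sorted cells expressed the epithelial markers Epcam, Cdh1, Vil1, Krt8 and Krt18, of which limma called 0 (adjusted p from 0.282 to 0.939). The 6 leukocyte markers and 4 fibroblast markers did not reach the minimum in any case, and the leukocyte sum was 7.72 to 24.7 CPM. The endothelial marker Pecam1 was at 4.999 against 19.9 CPM (limma adjusted p = 0.0218). Limma called 0 of 6 goblet cell markers (adjusted p from 0.481 to 0.979), which summed to 49589 CPM in conventionalized A, against 1386 to 7997 CPM in the other libraries. No marker was at 0 in all libraries. The part of these cell types in the ribosomal protein result was not tested.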

How the data were processed

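The authors deposited 1 table of normalized signal per gene for 8 libraries, made from 10 ng of RNA and 100 bp single-end reads. Trimmomatic 0.36, STAR 2.4.2a, R 3.3.1 and DESeq2 1.12.4 are named by the submitters' processing notes. From the values, the deposited signal is an estimated count divided by a library's size factor, and in multi-transcript genes also by a further factor. Values were whole multiples of a library's step (tolerance 0.02) in 99.8% of cases over 27909 genes with 1 transcript. Over 20149 genes with several it was 22.9%. The further factor can differ by gene and by library and so enter fold changes, and its part in them was not tested. Count tests were therefore not run. Steps also gave the approximate read scale. All 8 columns were mapped by title.

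Symbols came from GENCODE M21 (GRCm38), which matched 48058 of 48440 genes, and start sites from RefSeq. CPM were computed after TMM scaling (trims 30% and 5%), and 10 CPM in at least 4 libraries was the minimum for testing, on log2(CPM + 0.5), which understates changes of low genes. Limma 3.58.1 (R 4.3.3, trend, robust) compared the groups, two-sided, with Benjamini-Hochberg adjustment over all genes tested and calls under 0.05. Figures and summaries used Python 3.11.15.

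Littermates are named in the labels, which pairs the libraries by design. The correlation within pairs of deviations from the group means was 0.14, -0.16, 0.31 and -0.01 for pairs A to D. The block was fitted as an alternative. The genes, the lists and the rule for naming genes (extremes of p, level and fold change, all paralogs with their core genes, and 6 fixed genes) were chosen with earlier results of these data known. Lanes were not used. Reads made by PCR are not independent molecules, and depth per gene is unknown. Some genes that the naming rule took are not reported here by name.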

Additional observations from a re-analysis of the deposited data

How the results depend on the processing

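Of the ribosomal protein genes, 0 were called in the fit reported and in every alternative by limma but 1, the replicate block by littermate pair, which called 3. The block also took the calls over all genes from 117 to 812 higher. Genes called higher over the table numbered 263 with upper-quartile scaling, 45 without a filter, 584 with precision and sample weights, 208 with length and GC centring, 408 with that and the replicate block, and 14 to 410 without 1 library. Those called lower numbered 378, with 570 after length and GC centring, 706 with the block as well, and 151 to 372 without 1 library. Without pair C they were 54 higher and 160 lower, and after centring on the core ribosomal protein genes 2 and 213, or 3 and 950 with the block, both chosen after seeing the data. The block changed no other call among the genes of the family.

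Each of the 82 fold changes was positive in the 20 alternatives that do not centre on the family itself, the lowest being 0.14 with length and GC centring. Centred on the family, which sets its median near 0 by construction, 46 of 82 were positive, with a median of 0.02 and a lowest value of -0.42. In the other 20 the median lay between 0.55 without germ-free C and 1.31 without germ-free B. It was 0.62 with precision and sample weights. Scaling by library size alone gave 0.85, while the median of all genes was 0.09, so the distance between them was 0.77, as against 0.76 in the fit reported. That distance was 0.38 with precision and sample weights, where the median of all genes was 0.24. It was 0.57 with length and GC centring, 0.34 without germ-free C and 0.31 without pair C. The count at an unadjusted p under 0.05 ran from 1 to 77 when 1 library was left out. It was 1 without conventionalized D (7.56% of all genes were higher) and 77 without germ-free B (23.1%). Over the fits without 1 library, the difference between subunits ran from -0.06 to 0.01. That between core genes and paralogs ran from 0.09 to 0.26. The latter was 0.30 with length and GC centring and 0.32 without a filter, against 0.16. Levels under a few CPM, as in the 3 paralogs not tested, are limited by depth.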
